A study of Mus musculus with 12 samples.

Results

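Integrins are paired receptors, 1 alpha with 1 beta subunit, that tie cells to the extracellular matrix or to other cells, and laminins are the 3-chain proteins (alpha, beta, gamma) that many of them bind in the basement membrane. The genes described here are all those in either count table of the study whose symbol begins Itga or Itgb, leaving out 3 names of integrin-binding proteins that hold bp, or Lama, Lamb or Lamc. They are 39 genes, 28 of integrins and 11 of laminin chains, among 17912 genes in either table. All 39 are among the 17325 genes in the table of the inducible knockout and 38 are among the 17260 in that of the constitutive knockout, where Itgb2l has no row. Of the 39, 38 (28 of integrins and 10 of laminin chains) are described and counted here, 37 of them in the constitutive table.

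The study asked what the RNA helicase Ddx5 does in the heart, by deleting it in cardiomyocytes in 2 ways and sequencing the mRNA of male left ventricles, 3 libraries in each of 4 groups. The constitutive knockout, mCKO, was DDX5fl/fl MYH6Cre+, untreated and 8 weeks old, and its control, CTR1, was Ddx5flox/flox without Cre, untreated and of the same age. The inducible knockout, iCKO, was Ddx5flox/flox Myh6MerCreMer, and its control, CTR2, was Ddx5flox/flox without Cre. Both of those groups had tamoxifen injected into the abdomen, 20 mg/kg/day over 5 days, and the design text places collection after 7 days of injection. No age is given for iCKO and CTR2 in the sources used here other than that they were matched. All 4 groups carry floxed Ddx5. Myh6 drives either Cre in cardiomyocytes, so other cells of the ventricle keep the gene, and an effect of Cre itself cannot be told apart from the loss of Ddx5 because neither control has Cre. The labels do not say that replicates are separate animals, so p-values measure the spread between these libraries, which may be technical.

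In the heart, cardiomyocytes hold on to their surrounding basement membrane mainly through integrin alpha7 beta1 and dystroglycan, both of which bind laminin-211 (chains Lama2, Lamb1, Lamc1). Endothelial cells lie on laminins with the alpha4 or alpha5 chain, and fibroblasts reach fibronectin and fibrillar collagen through alpha5, alphaV, alpha1 and alpha11 subunits. White blood cells use a family of their own, in which the beta2 subunit pairs with alphaL, alphaM, alphaX or alphaD, and beta7 pairs with alpha4 or alphaE.

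Library totals lay between 19682268 and 25871882 counts. Ddx5 stood at 233, 232 and 218 CPM (counts scaled to library size, with sizes adjusted by TMM, the trimmed mean of M-values) in mCKO and at 636, 636 and 397 CPM in CTR1. It stood at 216, 219 and 192 CPM in iCKO and at 566, 697 and 597 CPM in CTR2. The mean was 40.9% of control in mCKO and 33.7% in iCKO, with no overlap of groups (exact two-sided permutation p = 0.1 in each, the smallest 3 against 3 libraries allow). Replicate 3 of mCKO and of CTR1 stood apart from replicates 1 and 2 of their groups in the same direction, and iCKO replicate 3 and CTR2 replicate 2 stood apart from theirs. The cardiomyocyte markers were abundant in every library, their sum over 10 genes lying between 52510 CPM and 110159 CPM, as the tissue label says.

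Among the 38 genes, 19 passed the test in iCKO and 0 to 5 in mCKO, depending on whether the replicate number was in the fit. In iCKO against CTR2, 15 of the 35 tested members rose and 4 fell, by edgeR's quasi-likelihood test with Benjamini-Hochberg adjustment over all genes at adjusted p below 0.05. Of all 13548 genes tested there, 25.2% rose and 19.5% fell. Scaled by library totals alone, 4592 genes rose and 1832 fell, against 3420 and 2648 with TMM, and 17 members rose and 4 fell. That scaling put the median of all genes at 0.24 (log2). The integrins gave 13 higher and 0 lower of 26 tested, and the laminin chains 2 higher and 4 lower of 9. The median log2 fold change of the tested members was 0.72, against 0.03 over all genes tested. The 3 members not tested (Itgad, Itgb2l and Lama1) were too low to pass the count filter. The libraries of iCKO did not overlap those of CTR2 for 18 higher and 5 lower members, where 31.9% of all genes tested were higher without overlap and 27% lower.

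In mCKO against CTR1 the same test called 0 of 34 tested members (Itgad, Itgae and Lama1 were too low) and 0% of all 13353 genes tested. At an unadjusted p below 0.05, 3 members and 1164 genes stood, and DESeq2's Wald test called 0 members, with 176 genes higher and 134 lower. Across genes, an mCKO library and the CTR1 library of its number departed from their group means together (r = 0.464, 0.532 and 0.823). Numbers 1 and 2 also did so with each other (0.529 and 0.553), so only replicate 3 was set apart, and no label states a pairing. With the replicate number as a block, 5 members rose and 0 fell, where 7.32% of all genes rose and 6.45% fell. Those 5 were Itgb2, Itgal, Itgam, Itgbl1 and Itga6. Without both replicate 3 libraries and with no block, 1 member, Itgal, rose and 0 fell, where 3.85% of all genes rose and 3.94% fell. The median log2 fold change of the tested members was 0.12 with the block, against 0.0048 over all genes. Libraries of mCKO lay above all those of CTR1 for 4 members (Itga11, Itgam, Itgax and Itgb2) and below for 1 (Itgb1), where 7.69% of all genes tested were higher without overlap and 7.3% lower.

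**Figure D1:**
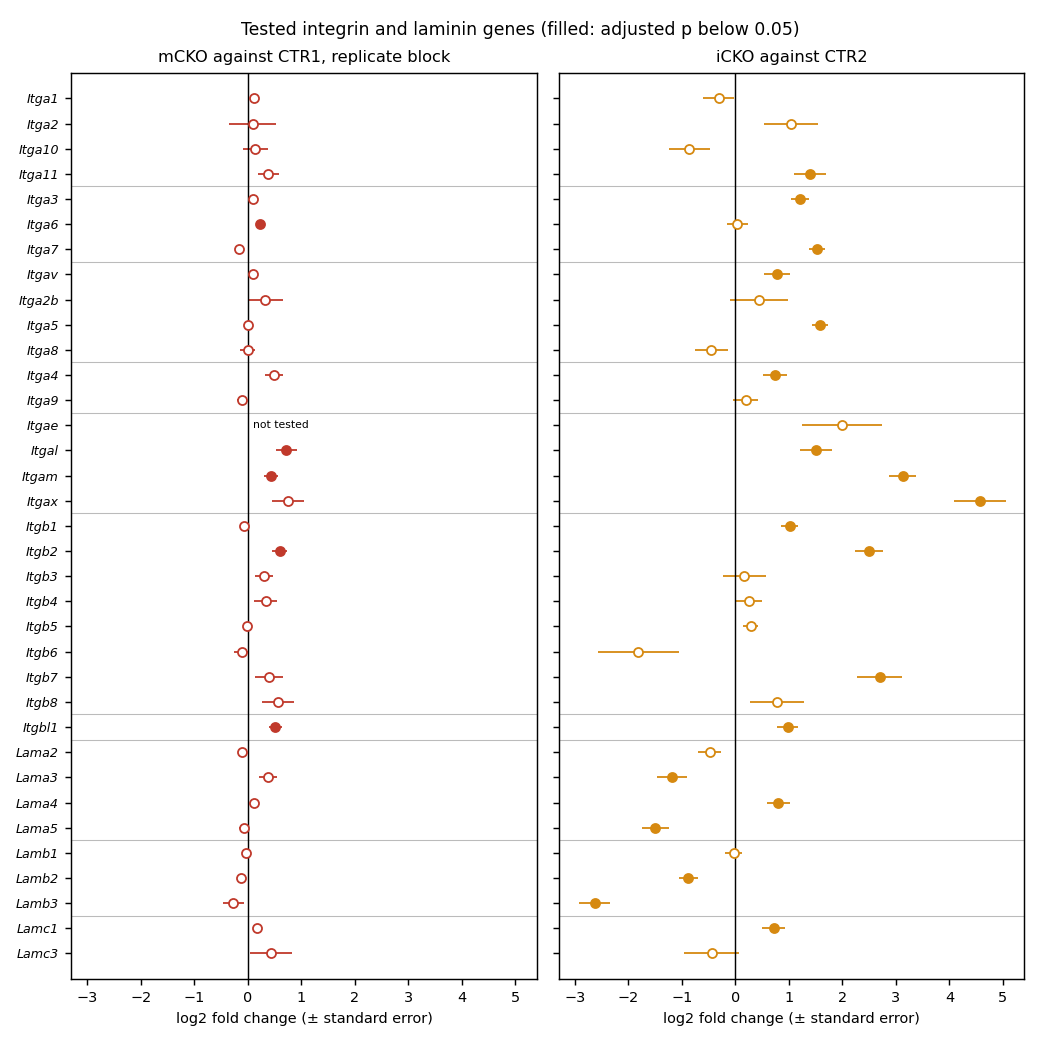
Log2 fold changes (x axis) of the tested integrin and laminin genes (y axis, grouped by role between the grey lines), with standard errors as bars, in mCKO against CTR1 with the replicate block (left) and in iCKO against CTR2 (right). Filled points passed adjusted p below 0.05: 5 in mCKO, all higher, and 19 in iCKO, of which 15 were higher and 4, all laminin chains, lower.

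The 4 highest log2 fold changes among the tested members in iCKO were those of the leukocyte integrins Itgax, Itgam, Itgb7 and Itgb2. Itgam encodes alphaM, which with beta2 forms the receptor Mac-1 of macrophages and neutrophils. It stood at 72.5, 89.0 and 111 CPM in iCKO, against 9.67, 13.5 and 8.11 CPM in CTR2. Every iCKO library was above every control, and the log2 fold change was 3.12 ± 0.24 (standard error; adjusted p = 8.5e-05, edgeR). Itgax encodes alphaX, known from dendritic cells and activated macrophages. It was low, at 6.72, 7.65 and 4.84 CPM in iCKO, against 0.405, 0.0471 and 0.357 CPM in CTR2, where 1 library rests on a single count. Again all iCKO libraries were above all controls. Its log2 fold change was 4.57 ± 0.49 (adjusted p = 0.00027, edgeR).

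Itgb2, the beta subunit that both share, stood at 40.4, 51.1 and 67.4 CPM in iCKO, against 7.44, 12.6 and 8.06 CPM in CTR2. The groups did not overlap (log2 fold change 2.50 ± 0.27, adjusted p = 0.00027, edgeR). Itgal, the alphaL of LFA-1 on lymphocytes and other white cells, stood at 5.73, 7.72 and 3.69 CPM in iCKO, against 2.13, 2.12 and 1.79 CPM in CTR2 (log2 fold change 1.505 ± 0.31, adjusted p = 0.0048, edgeR). Itgb7 stood at 2.70, 4.12 and 7.04 CPM in iCKO, against 0.860, 0.706 and 0.561 CPM in CTR2. It rose by 2.69 ± 0.42 (log2, adjusted p = 0.0013, edgeR). Of its alpha partners, Itga4 is given further on, and Itgae was near the detection limit, at 0.511, 0.423 and 0.708 CPM in iCKO and 0.101, 0 and 0.306 CPM in CTR2, where a count of 0 allows up to 0.141 CPM. Itgae missed the threshold (1.998 ± 0.75, adjusted p = 0.058, edgeR). Itgad was at or below 0.354 CPM in every library of that experiment.

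Itgb2, Itgam and Itgal also rose in mCKO with the block. Itgb2 stood at 16.5, 12.6 and 18.4 CPM in mCKO, against 8.61, 10.9 and 11.9 CPM in CTR1. Itgam stood at 11.7, 11.8 and 16.9 CPM in mCKO, against 10.03, 9.66 and 9.83 CPM in CTR1. Itgal stood at 6.79, 6.48 and 3.07 CPM in mCKO, against 3.13, 3.81 and 2.69 CPM in CTR1, with the third library of mCKO inside the control range. With the replicate block the log2 fold changes were 0.59 ± 0.14 for Itgb2, 0.44 ± 0.13 for Itgam and 0.72 ± 0.20 for Itgal (adjusted p = 0.017, 0.048 and 0.033, edgeR), and without it the adjusted p-values were 0.43, 0.54 and 0.60. Itgax did not pass either fit, at 2.02, 1.36 and 1.51 CPM in mCKO and 0.929, 1.15 and 0.834 CPM in CTR1 (0.75 ± 0.30 with the block, adjusted p = 0.13, edgeR).

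Macrophage markers moved in both comparisons, and those of some other white blood cells in iCKO. The 12 macrophage markers summed to between 1037 and 2060 CPM in iCKO and between 411 and 542 CPM in CTR2, with 10 of 12 called higher. Their sum was between 761 and 1355 CPM in mCKO and between 570 and 834 CPM in CTR1, with 10 of 12 called higher under the block. Neutrophil markers summed to between 18.4 and 64.1 CPM in iCKO and between 3.72 and 14.9 CPM in CTR2, with 4 of 6 tested called higher. Dendritic cell markers summed to between 16.02 and 24.03 CPM in iCKO and between 21.0 and 25.7 CPM in CTR2, with 2 of 3 tested called higher. Markers of T and NK cells summed to between 2.41 and 5.66 CPM in iCKO and between 1.60 and 2.09 CPM in CTR2. Of these, 0 of 1 tested was called in iCKO, and Cd3e was at 0 in CTR2. With the block, mCKO gave calls for 0 of 2 neutrophil, 0 of 2 dendritic and 0 of 4 T and NK cell markers tested. The neutrophil genes Mpo and Elane have no row in the constitutive table, and Ly6g was at 0 in all mCKO libraries. The part of these cells in the integrin values was not tested, and in RNA from whole tissue more cells of a type and more RNA per cell cannot be told apart. Within iCKO, replicate 3 had the highest macrophage sum, the highest Itgam and Itgb2 and the lowest Itgax and Itgal. GENCODE places 68.7% of the exon bases of Itgam also in a gene model named Gm49368 on the same strand, so how its reads were assigned is uncertain.

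**Figure D2:**
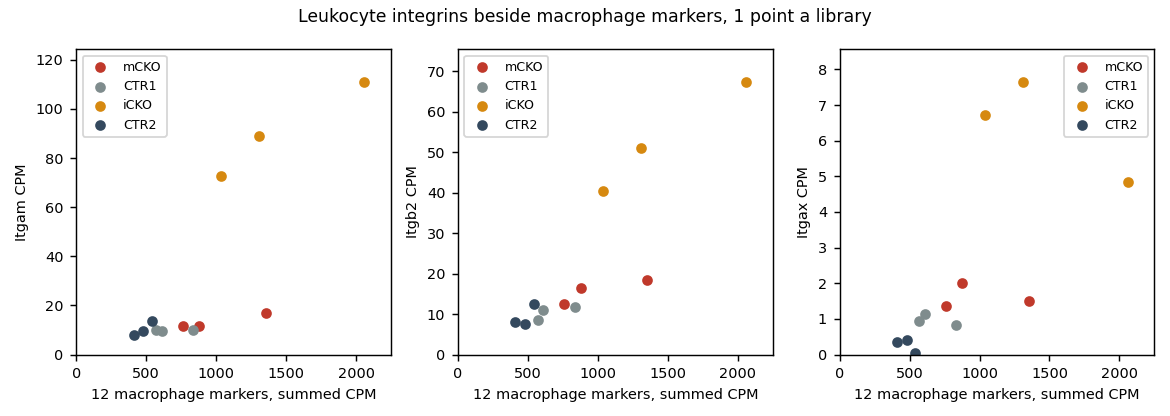
CPM of Itgam, Itgb2 and Itgax (y axes) against the summed CPM of 12 macrophage markers (x axes), 1 point a library, coloured by group. The iCKO libraries, at 1037 to 2060 CPM of marker sum, lie highest on each y axis, the third mCKO library (1355 CPM) lies among them on the x axis, and on each y axis the mCKO libraries lie above those of CTR1.

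Itgam and Itgax are neighbours on chromosome 7 and rose together in iCKO, so the 250 bases before their listed promoter starts are shown. Sequences are from the RefSeq promoter table for GRCm38.p6, from which entries of 25 members were used. Capitals mark matches on either strand to GAGGAA, the core bound by the myeloid factor PU.1, to TGANTCA, the AP-1 site, and to GGGCGG, the GC box. Of all 32851 promoters in the table, 23.3%, 6.75% and 32.7% hold these in the same window. Of the 25 matched members, 14, 1 and 9 hold them at 1 or more listed starts. The windows are chr7:128062390-128062639 (plus strand) for Itgam and chr7:128129300-128129549 (plus strand) for Itgax.
Itgam: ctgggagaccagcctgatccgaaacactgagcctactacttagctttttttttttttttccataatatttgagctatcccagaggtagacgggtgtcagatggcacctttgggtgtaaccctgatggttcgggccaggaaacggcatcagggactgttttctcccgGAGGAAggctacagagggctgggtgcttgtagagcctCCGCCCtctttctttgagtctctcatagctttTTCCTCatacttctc
Itgax: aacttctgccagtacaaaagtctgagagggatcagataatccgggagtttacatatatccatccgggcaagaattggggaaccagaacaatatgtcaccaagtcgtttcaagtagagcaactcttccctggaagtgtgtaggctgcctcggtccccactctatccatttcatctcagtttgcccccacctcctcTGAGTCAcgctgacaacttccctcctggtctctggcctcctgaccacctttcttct
In RefSeq's annotation of the same build, Itgam spans chr7:128062640-128118491 and Itgax chr7:128129526-128150657, both protein-coding, on the plus strand. The Itgax window ends inside that span, as the start listed for a promoter can differ from that of the gene. In these letters Itgam has 2 matches to GAGGAA and 1 to GGGCGG, and Itgax has 1 to TGANTCA. A match is a description of the letters and not a bound site.

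Among the receptors for fibronectin and other ligands with an Arg-Gly-Asp sequence, Itga5 rose. This alpha5 subunit forms the main fibronectin receptor with beta1. It stood at 279.6, 328 and 309.8 CPM in iCKO, against 96.7, 112 and 97.2 CPM in CTR2, so that the lowest knockout library was well above the highest control. The log2 fold change was 1.58 ± 0.15 (adjusted p = 0.00015, edgeR). Itgav, the alphaV subunit that pairs with several beta subunits and can activate latent TGF-beta, stood at 58.2, 67.7 and 33.5 CPM in iCKO, against 32.2, 27.7 and 33.3 CPM in CTR2. The third iCKO library lay just above the controls, and the change was small (0.77 ± 0.25, adjusted p = 0.033, edgeR). Leaving out iCKO replicate 1 or 2 or any CTR2 library ended that call (adjusted p up to 0.12).

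The other members of that role did not pass. Itga8, an alpha subunit of smooth muscle and fibroblast-like cells, lay between 2.12 and 4.19 CPM in iCKO and between 3.15 and 4.96 CPM in CTR2. Itga2b, the alphaIIb of platelets, lay at 2.15, 2.25 and 3.13 CPM in iCKO and at 0.607, 3.53 and 1.38 CPM in CTR2. Its partner Itgb3, which also pairs with alphaV, lay at 6.90, 7.22 and 8.50 CPM in iCKO and at 3.44, 11.8 and 4.85 CPM in CTR2. CTR2 replicate 2 was the highest of all 6 libraries for both. Without that library both were called higher, by 1.33 ± 0.42 for Itga2b and 0.86 ± 0.24 for Itgb3 (adjusted p = 0.044 and 0.029, edgeR). The 10 platelet markers summed to between 23.3 and 69.1 CPM in iCKO and between 7.63 (replicate 2) and 8.25 CPM in CTR2. Only 2 of them passed the count filter, and both were called higher. The part of platelets in the Itga2b and Itgb3 values was not tested.

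Among the collagen-binding alpha subunits, which share partner beta1, 1 of 4 rose in iCKO, close to the 25.2% of all genes tested there. Itga11, known from fibroblasts and collagen I, stood at 4.27, 5.92 and 5.74 CPM in iCKO, against 2.73, 1.37 and 1.99 CPM in CTR2 (log2 fold change 1.39 ± 0.30, adjusted p = 0.0061, edgeR). Without both replicate 3 libraries its adjusted p was 0.053. Itga1 was the most abundant of the 4 per length, and stood at 38.8, 49.6 and 20.3 CPM in iCKO, against 46.5, 41.1 and 47.7 CPM in CTR2. The third iCKO library alone was far below the rest, and the log2 fold change was -0.31 ± 0.29 (adjusted p = 0.40, edgeR). Itga2 and Itga10 were at or below 3.62 CPM in the iCKO experiment and did not pass.

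The receptors for laminin split in iCKO. Itga7, the alpha7 subunit of striated muscle, was the most abundant alpha subunit per length in every group. It stood at 672, 652 and 670.1 CPM in iCKO, against 246, 207 and 239.5 CPM in CTR2. The knockout libraries were close together and far above the controls (log2 fold change 1.53 ± 0.14, adjusted p = 0.00015, edgeR). Itga3 stood at 54.9, 47.4 and 42.7 CPM in iCKO, against 23.4, 18.1 and 21.2 CPM in CTR2 (1.21 ± 0.16, adjusted p = 0.00070, edgeR). Itga6, common on endothelial cells, did not pass and its groups overlapped, at 55.2, 60.6 and 38.2 CPM in iCKO and 54.1, 44.1 and 52.3 CPM in CTR2 (0.03 ± 0.19, adjusted p = 0.90, edgeR). The endothelial markers summed to between 931 and 1079 CPM in iCKO and between 1400 and 1679 CPM in CTR2, with 5 of 10 called lower.

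In mCKO these 3 genes differed little from control. Itga7 stood at 291, 304 and 199.8 CPM in mCKO and at 310.1, 345 and 229 CPM in CTR1, with both replicate 3 libraries lower than the others (-0.16 ± 0.06 with the block, adjusted p = 0.12, edgeR). Itga6 stood at 82.3, 88.7 and 114 CPM in mCKO, against 70.7, 72.2 and 103 CPM in CTR1. Each mCKO library was above the CTR1 library of its number, although the groups overlapped, and Itga6 rose with the block by 0.22 ± 0.06 (adjusted p = 0.041, edgeR; 0.90 without it). Itga3 stood at 25.0, 25.3 and 21.9 CPM in mCKO and at 25.2, 26.3 and 17.1 CPM in CTR1, with overlap. Itga5 likewise overlapped, at 81.4, 88.5 and 73.7 CPM in mCKO and 78.6, 77.7 and 85.7 CPM in CTR1 (0.01 ± 0.08 with the block, adjusted p = 0.98, edgeR). The cardiomyocyte markers summed to between 63231 and 96884 CPM in mCKO and between 74676 and 110159 CPM in CTR1, with 6 of 10 called lower under the block.

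The alpha4 and alpha9 subunits bind VCAM-1, an endothelial adhesion protein, and several matrix proteins. Of these 2, 1 rose in iCKO, where 25.2% of all genes tested rose. Itga4 stood at 13.1, 14.3 and 8.09 CPM in iCKO, against 6.98, 7.02 and 7.29 CPM in CTR2 (0.74 ± 0.23, adjusted p = 0.030, edgeR). Leaving out iCKO replicate 1 or 2 or any CTR2 library ended that call (adjusted p up to 0.11). Itga9, more abundant per length, stood at 69.0, 71.6 and 52.3 CPM in iCKO and at 68.7, 38.3 and 62.1 CPM in CTR2, and the groups overlapped (0.19 ± 0.23, adjusted p = 0.53, edgeR).

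Itgb1 encodes the beta subunit shared by most of the alpha subunits above. It stood at 863, 1011 and 1186 CPM in iCKO, against 519.7, 499 and 492 CPM in CTR2, and at 434, 416 and 432 CPM in mCKO, against 444, 440.0 and 463 CPM in CTR1. Every iCKO library was above every control, by 1.02 ± 0.16 on the log2 scale (adjusted p = 0.0014, edgeR), and the mCKO libraries were just below theirs (-0.07 ± 0.06 with the block, adjusted p = 0.50, edgeR). Per length, Itgb1 was the highest member in mCKO, iCKO and CTR2, and stood in the inducible experiment at 249.9 ± 39.7 and 123 ± 3.54 CPM per kb (SD, n = 3 each). Per kb, Itgb5, a partner of alphaV, came next among the beta subunits, at 50.6 ± 3.48 CPM in iCKO and 41.4 ± 3.29 CPM in CTR2. Its groups did not overlap, and it missed the threshold (0.29 ± 0.14, adjusted p = 0.13, edgeR). Scaled by library totals alone, Itgb5 was called higher (0.50 ± 0.14, adjusted p = 0.02, edgeR), where 4592 of all genes rose, against 3420 with TMM.

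Itga5 and Itgb1 rose together, so the same window is shown for both, at chr15:103366792-103367041 (minus strand) and chr8:128685404-128685653 (plus strand).
Itga5: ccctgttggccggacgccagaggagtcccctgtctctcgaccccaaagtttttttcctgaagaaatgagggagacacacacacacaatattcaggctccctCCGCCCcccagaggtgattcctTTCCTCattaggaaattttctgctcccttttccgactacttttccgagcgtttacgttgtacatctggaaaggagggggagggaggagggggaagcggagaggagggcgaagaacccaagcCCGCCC
Itgb1: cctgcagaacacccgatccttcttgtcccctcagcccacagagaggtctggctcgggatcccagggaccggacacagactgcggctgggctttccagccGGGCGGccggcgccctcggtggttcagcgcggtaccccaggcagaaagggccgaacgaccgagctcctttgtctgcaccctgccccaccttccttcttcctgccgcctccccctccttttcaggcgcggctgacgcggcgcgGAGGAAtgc
Itga5 has 1 match to GAGGAA and 2 to GGGCGG in this window, and Itgb1 has 1 of each.

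Summed per length, the alpha subunits that can pair with beta1 came to 176 ± 6.61 CPM per kb in iCKO and 73.1 ± 4.82 CPM per kb in CTR2 (SD, n = 3 each), 241% of control. The 8 beta subunits came to 322 ± 47.5 CPM per kb in iCKO and 171 ± 0.84 CPM per kb in CTR2, 188% of control. Both sums were separate between groups (exact permutation p = 0.1, the smallest possible). In mCKO the sums were 97.3% and 97.4% of control, with overlap. Within the alpha partners of beta1, Itga7 made up 46.7 ± 2.44% in iCKO and 39.0 ± 1.02% in CTR2, Itga5 made up 35.2 ± 2.34% and 28.5 ± 4.41%, and Itga6 made up 3.21 ± 0.64% and 7.59 ± 0.32%.

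Itgb6, an epithelial partner of alphaV, was low in iCKO, at 2.85, 2.57 and 1.01 CPM, against 13.7, 0.989 and 8.06 CPM in CTR2. The second control library was below every knockout library, and the change missed the threshold (-1.81 ± 0.76, adjusted p = 0.084, edgeR). Without CTR2 replicate 2 it was called, at -2.34 ± 0.44 (adjusted p = 0.0074, edgeR). Itgb4, the hemidesmosome partner of alpha6, lay between 3.17 and 5.04 CPM in iCKO and between 3.49 and 3.67 CPM in CTR2. Itgb8 lay between 1.04 and 3.98 CPM in iCKO and between 1.18 and 2.43 CPM in CTR2. Without iCKO replicate 3, its lowest knockout library, it was called at 1.14 ± 0.35 (adjusted p = 0.029, edgeR). Itgbl1, a secreted protein with repeats like those of beta subunits and no known alpha partner, stood at 12.6, 18.6 and 17.5 CPM in iCKO, against 8.50, 7.49 and 8.82 CPM in CTR2 (0.97 ± 0.19, adjusted p = 0.0043, edgeR). In mCKO it stood at 10.95, 8.24 and 16.9 CPM, against 7.04, 5.95 and 12.4 CPM in CTR1, higher in each numbered pair, and rose with the block by 0.51 ± 0.11 (adjusted p = 0.015, edgeR; 0.84 without it). The fibroblast markers, of which 4 of 10 were called higher and 1 lower in iCKO, summed to between 1832 and 2364 CPM there and between 1109 and 1227 CPM in CTR2. In mCKO they summed to between 1096 and 2384 CPM and in CTR1 to between 977 and 1898 CPM, with 5 of 10 called higher and 0 lower under the block. The part of fibroblasts in the Itgbl1 values was not tested.

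**Figure D3:**
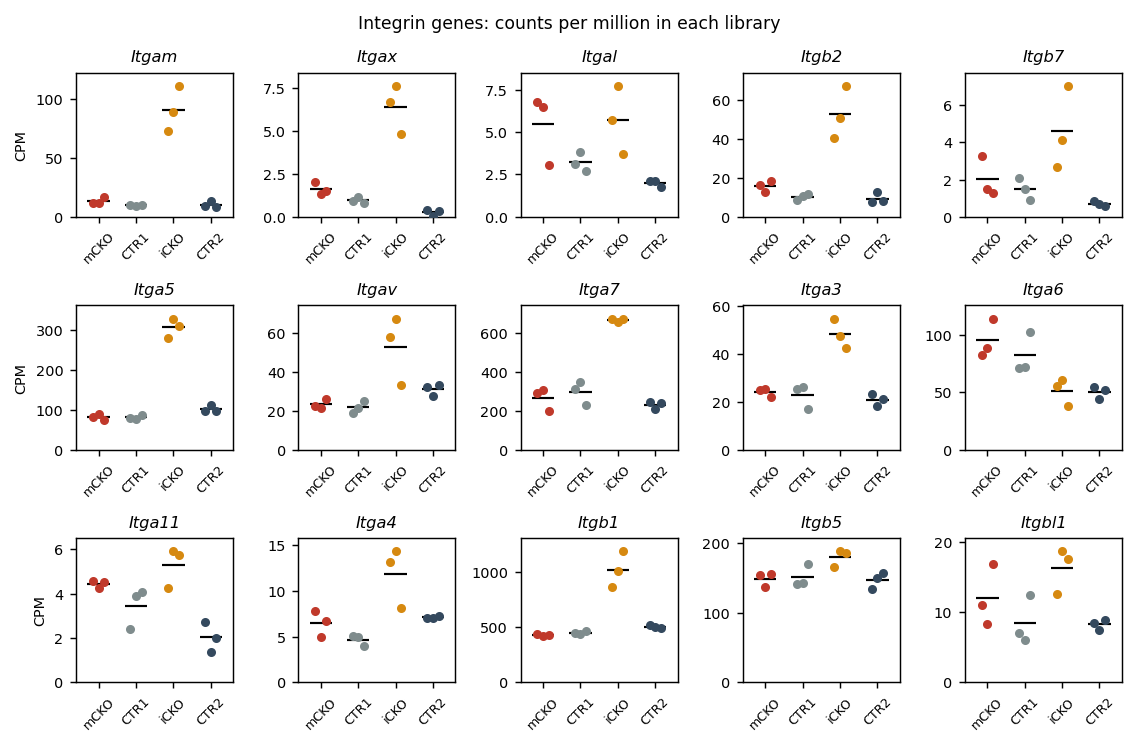
CPM (y axes) of 15 integrin genes in each of 12 libraries, by group (x axes), with group means as bars. Itgam, Itgax, Itgb2, Itga5, Itga7 and Itgb1 are far above control in iCKO, and the mCKO points lie near those of CTR1.

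The laminin alpha chains shifted in both directions in iCKO. Lama5, the alpha5 chain of the laminins under mature endothelium, was the most abundant alpha chain per length in mCKO, CTR1 and CTR2. It stood at 152, 149.6 and 78.3 CPM in iCKO, against 339, 387 and 347 CPM in CTR2. Every iCKO library was far below the lowest control, and the log2 fold change was -1.50 ± 0.25 (adjusted p = 0.0021, edgeR). Lama4, the alpha4 chain of endothelium and of muscle capillaries, stood at 137, 157 and 105 CPM in iCKO, against 90.3, 57.9 and 80.7 CPM in CTR2. All 3 iCKO libraries were above the controls (0.80 ± 0.21, adjusted p = 0.016, edgeR), and without iCKO replicate 2 the adjusted p was 0.064. Lama2, the alpha2 chain of the muscle basement membrane, lay at 129, 153 and 84.5 CPM in iCKO and at 177, 159 and 174 CPM in CTR2. All iCKO libraries were lower, and the change missed the threshold (-0.48 ± 0.22, adjusted p = 0.10, edgeR). Lama3, an alpha chain of epithelial laminins, was low, at 3.21, 3.35 and 1.79 CPM in iCKO, against 7.54, 5.84 and 5.66 CPM in CTR2 (-1.19 ± 0.28, adjusted p = 0.010, edgeR). Lama1, known from embryos, was at or below 0.335 CPM in every library.

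The change in make-up was large. Lama5 held 40.6%, 36.7% and 32.8% of the laminin alpha CPM per kb in the iCKO libraries, against 60.95%, 69.3% and 63.1% in those of CTR2. Lama4 held 34.5%, 36.3% and 41.5% in iCKO, against 15.3%, 9.77% and 13.8% in CTR2. The 2 chains held similar shares in iCKO, and Lama5 far the larger in CTR2. The shares of the other laminin alpha and beta chains compared were also separate between iCKO and CTR2. Over 17 shares and sums compared, 16 gave the smallest exact permutation p, 0.1 (0.106 after Benjamini-Hochberg adjustment). None of the 17 passed 0.05 or could with 3 against 3. In mCKO and CTR1 the laminin shares overlapped, with Lama5 at 50.3 ± 8.67% and 51.7 ± 8.45% (SD, n = 3 each), and replicate 3 of both groups held less Lama5 than the others. Among the other shares, that of Itgb2 among the beta subunits was 3.28% in mCKO and 2.12% in CTR1, without overlap (exact permutation p = 0.1; 0.785 adjusted over 17).

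The beta chains fell in iCKO where they changed. Lamb2, the beta2 chain and the most abundant laminin gene per length, stood at 427, 399.8 and 318 CPM in iCKO, against 754, 594 and 755 CPM in CTR2. The groups were well apart (-0.88 ± 0.18, adjusted p = 0.0044, edgeR). Lamb3, a beta chain of epithelial laminins, stood at 5.19, 3.66 and 4.47 CPM in iCKO, against 24.4, 38.8 and 19.4 CPM in CTR2 (-2.63 ± 0.28, adjusted p = 0.00028, edgeR). That is 6.20-fold lower. Lamb1, the beta1 chain of laminin-211, did not pass and its groups overlapped, at 134, 158 and 122 CPM in iCKO and 154, 132 and 139 CPM in CTR2 (-0.03 ± 0.15, adjusted p = 0.88, edgeR).

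Of the gamma chains, Lamc1, present in nearly all laminins, stood at 433, 449 and 262 CPM in iCKO, against 215, 254 and 227 CPM in CTR2 (0.72 ± 0.22, adjusted p = 0.027, edgeR). The third iCKO library was only just above the controls, and leaving out iCKO replicate 1 or 2 or any CTR2 library ended the call (adjusted p up to 0.099). Lamc3 was at or below 0.714 CPM in that experiment and did not pass.

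In mCKO no laminin chain described here passed, with or without the block. Lama5 stood at 356, 259 and 164 CPM in mCKO and at 315, 325 and 174 CPM in CTR1. Lamb2 stood at 723, 711 and 426 CPM in mCKO and at 762, 781 and 487 CPM in CTR1. For both genes the replicate 3 libraries were far below the others of their groups, and the groups overlapped. Lamb2 was lower in each numbered pair (-0.13 ± 0.06 with the block, adjusted p = 0.17, edgeR), and Lama5 in 2 of 3 pairs (-0.08 ± 0.09, adjusted p = 0.63, edgeR). Lamc1 stood at 329, 298 and 339 CPM in mCKO and at 269, 287 and 301 CPM in CTR1, higher in each numbered pair with some overlap (0.17 ± 0.07 with the block, adjusted p = 0.12, edgeR). The log2 fold changes with the block lay between -0.28 for Lamb3 and 0.43 for Lamc3.

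Summed per length, the alpha chains came to 29.9 ± 7.88 CPM per kb in iCKO and 48.7 ± 0.38 in CTR2, 61.4% of control. The beta chains came to 77.3 ± 10.6 CPM per kb in iCKO and 134 ± 14.7 in CTR2, 57.9% of control. In mCKO the alpha and beta sums were 97.9% and 92.2% of control and their groups overlapped. The beta sum was lower in each numbered pair, at 139.9, 138 and 88.8 CPM per kb in mCKO and 146, 149.7 and 102 CPM per kb in CTR1, and the alpha sum in 2 of 3. The cardiomyocyte markers summed to between 52510 and 62128 CPM in iCKO and between 93846 and 105880 CPM in CTR2, with 7 of 10 called lower. Those of pericytes and smooth muscle summed to between 1191 and 1391 CPM in iCKO and between 1700 and 1785 CPM in CTR2, while 4 of 10 were called higher and 3 lower, with a median log2 fold change of 0.04. Their part in the laminin values was not tested.

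**Figure D4:**
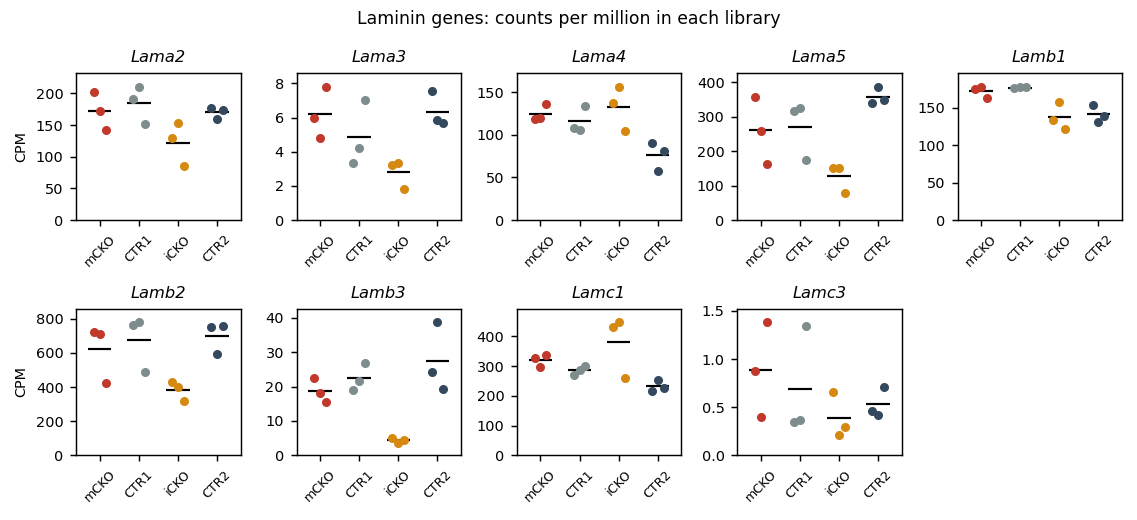
CPM (y axes) of 9 laminin genes in each of 12 libraries, by group (x axes), with group means as bars. In iCKO, Lama5, Lamb2 and Lamb3 lie below CTR2 and Lama4 lies above it, and replicate 3 of mCKO and CTR1 is low for Lama5 and Lamb2.

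**Figure D5:**
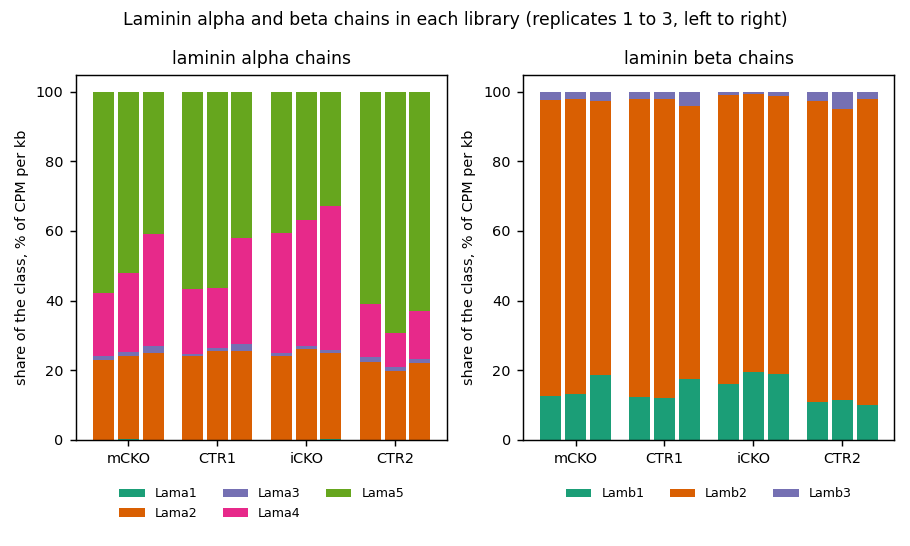
Shares (y axes, % of the CPM per kb of a chain class) of the laminin alpha and beta chains in each library (x axes, replicates 1 to 3 within a group). In iCKO the Lama4 share is 34.5% to 41.5%, above the 9.77% to 15.3% of CTR2.

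Lama5 and Lamb2 both fell in iCKO, and the windows before their listed promoter starts are chr2:180225860-180226109 (minus strand) and chr9:108479612-108479861 (plus strand). By RefSeq's gene coordinates both windows run into the gene.
Lama5: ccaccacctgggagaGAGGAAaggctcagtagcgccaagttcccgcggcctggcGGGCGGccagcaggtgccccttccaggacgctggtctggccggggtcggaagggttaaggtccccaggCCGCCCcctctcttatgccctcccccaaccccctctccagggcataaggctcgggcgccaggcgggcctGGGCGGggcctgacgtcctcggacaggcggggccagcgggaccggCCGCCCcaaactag
Lamb2: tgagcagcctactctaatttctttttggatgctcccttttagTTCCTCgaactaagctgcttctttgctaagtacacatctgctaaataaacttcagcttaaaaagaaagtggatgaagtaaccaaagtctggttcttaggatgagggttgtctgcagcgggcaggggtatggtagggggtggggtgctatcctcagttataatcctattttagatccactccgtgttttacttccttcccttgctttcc
Lama5 has 4 matches to GGGCGG and 1 to GAGGAA, in a window of 72.4% G and C, and Lamb2 has 1 match to GAGGAA in a window of 43.6% G and C, where the median over all promoters in the table was 52.4%.

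The difference between the models was tested in 1 fit of all 12 libraries, as the effect in mCKO minus the effect in iCKO. Of 35 members tested, 8 were called lower and 3 higher, where 9.88% of all 13871 genes tested were lower and 11% higher. The effect was smaller in mCKO than in iCKO for Itgax (a difference of -3.77 ± 0.60 on the log2 scale), Itgam (-2.64 ± 0.32), Itgb7 (-2.24 ± 0.68), Itgb2 (-1.87 ± 0.36), Itga7 (-1.64 ± 0.26), Itga5 (-1.54 ± 0.18), Itga3 (-1.10 ± 0.24) and Itgb1 (-1.06 ± 0.19). It was above that in iCKO for Lamb3 (2.40 ± 0.36), Lama3 (1.58 ± 0.44) and Lama5 (1.48 ± 0.45). Scaled by library totals alone, 8 were lower and 1 higher, Lama3 and Lama5 no longer passing, and over all genes 2145 were lower and 1103 higher, against 1371 and 1521 with TMM. For Itgal the difference was not called (-0.70 ± 0.47, adjusted p = 0.31, edgeR), nor for Itgbl1 (-0.44 ± 0.43, adjusted p = 0.50, edgeR), both of which rose in iCKO and, with the block, in mCKO. Itgam and Itgb2 also rose in iCKO and, only with the block, in mCKO, and their difference was called.

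The genes around these receptors were read from 3 lists. Of 40 tested adhesion adaptors and kinases, which tie the integrin tails to actin and signal from them, 24 rose and 5 fell in iCKO, where 25.2% of all genes rose and 19.5% fell, and 3 rose and 3 fell in mCKO with the block, close to the 7.32% and 6.45% of all genes there. The median log2 fold change was 0.72 in iCKO, against 0.03 over all genes, and 0.04 in mCKO with the block, against 0.0048. Flnc, filamin C of striated muscle, averaged 3613 ± 624 CPM in iCKO and 604 ± 113 CPM in CTR2 (SD, n = 3 each; log2 fold change 2.58 ± 0.21, adjusted p = 9.2e-05, edgeR). Actn1 and Actn4, the non-muscle alpha-actinins, rose by 2.94 ± 0.24 and 1.45 ± 0.14 (log2). Ptk2b, the kinase Pyk2, rose by 0.99 ± 0.14 in iCKO and by 0.997 ± 0.12 in mCKO with the block (adjusted p = 0.00088 and 0.00046, edgeR), and the difference between models was 0.04 ± 0.22 (adjusted p = 0.92, edgeR). Pdlim7, a scaffold of actin fibres, rose in iCKO (1.35 ± 0.22) and fell in mCKO with the block (-0.45 ± 0.07).

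Of 24 tested basement membrane partners and other laminin receptors, 9 rose and 4 fell in iCKO. Of all genes, 25.2% rose and 19.5% fell there, the falls in the list being close to that share. In mCKO with the block 4 of the list rose and 0 fell, where 7.32% of all genes rose and 6.45% fell. The median log2 fold change of the list was 0.36 in iCKO and 0.18 in mCKO with the block, against the same values over all genes as above. Sparc, a collagen-binding matrix protein, rose by 2.35 ± 0.17 in iCKO and by 0.54 ± 0.07 in mCKO with the block. Fbln2, which binds laminin and nidogen, rose by 1.39 ± 0.17 in iCKO, and Egflam, or pikachurin, a ligand of dystroglycan, fell (-1.32 ± 0.15). Col15a1 and Col18a1, collagens of the basement membrane zone, rose by 2.32 ± 0.57 and 1.18 ± 0.22 in iCKO and by 0.37 ± 0.06 and 0.46 ± 0.13 in mCKO with the block. The iCKO call of Col15a1 was lost without both replicate 3 libraries (adjusted p = 0.056).

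Of the other integrin ligands, 19 of 29 tested rose and 2 fell in iCKO, and 12 of 28 rose and 0 fell in mCKO with the block, with medians of 1.52 and 0.24 (log2), beside the same shares and medians of all genes. Tnc, tenascin C, a ligand of alpha9 and alphaV integrins, averaged 371 ± 97.8 CPM in iCKO and 1.93 ± 0.24 CPM in CTR2, a log2 fold change of 7.58 ± 0.29. Postn, periostin, a ligand of alphaV integrins, averaged 952 ± 243 CPM in iCKO and 17.5 ± 4.43 CPM in CTR2 (5.77 ± 0.30). Col1a1, a chain of collagen I, rose by 3.82 ± 0.29. Fbn1, fibrillin 1, and Svep1, a ligand of alpha9, rose by 2.79 ± 0.31 and 1.52 ± 0.38. In mCKO with the block the same genes rose as well, Tnc by 1.33 ± 0.25, Postn by 0.57 ± 0.08, Col1a1 by 0.46 ± 0.08, Fbn1 by 0.39 ± 0.06 and Svep1 by 0.70 ± 0.08. The difference between models was called for the first 4 and not for Svep1 (-0.78 ± 0.46, adjusted p = 0.25, edgeR). Without the replicate 3 libraries that of Svep1 was called too (-1.25 ± 0.27, adjusted p = 0.012, edgeR), and its iCKO call was lost without CTR2 replicate 2 (adjusted p = 0.052). Without the block none of these passed in mCKO.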

How the data were processed

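mRNA of the left ventricle was sequenced in 12 libraries, 3 a group, grouped by the labels. Per the labels' protocols, libraries came from a TruSeq stranded kit that selects mRNA. Per the submitters' processing notes, HISAT2 and DESeq were used with genome build GRCm38; the sources used here give no version, annotation, counting tool or strand setting. What the authors deposited were raw counts per gene, in 1 table for each knockout with its control, and these counts were used as deposited.

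CPM on TMM-scaled library sizes and log2 fold changes were computed here. Each model was tested against its own control with edgeR 4.0.16 quasi-likelihood fits (robust, R 4.3.3) after filterByExpr (minimum count 10, minimum total 15), with two-sided Benjamini-Hochberg adjustment over all genes tested, called below 0.05. Standard errors are the log2 fold change divided by the square root of F. The difference between models used the 16673 genes in both tables. Fits were also run on counts simulated with the same spread for all genes and no replicate effect. Such counts cannot decide between fits with and without the block. A count of 0 allows up to 3 counts, or 0.106 to 0.157 CPM by library, counting error only. Chi-square tests found every pair of libraries in a group to differ by more than sampling noise.

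The deviations from group means of an mCKO library and of the CTR1 library with its number correlated over genes (r = 0.464, 0.532 and 0.823), so fits with the replicate block stand beside that comparison; numbers 1 and 2 also correlated with each other (0.529 and 0.553), so replicate 3 carries the pairing, which comes from the data and not from a label. In iCKO and CTR2 they did not (0.058, -0.090 and -0.161). Lengths are exon unions of GENCODE M21, and gene coordinates and promoters are those of RefSeq GRCm38.p6. Shares of a chain class were compared by exact permutation.

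The members, role groups and lists were chosen with earlier results of these data known; 1 gene is not reported here. Full values are given for each member called in a fit and for the most abundant member per length of each role, and of each other list for up to 3 called genes with the smallest adjusted p per model. Alternatives were other scalings, no filter, DESeq2 1.42.0, the block and leaving out libraries.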

Additional observations from a re-analysis of the deposited data

Results flagged for a closer look

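The effect of the deletion differed between the 2 models by the test of the difference itself (mCKO against CTR1 minus iCKO against CTR2, 12 libraries, edgeR, adjusted p below 0.05) for 11 integrin and laminin genes. The log2 differences were -3.77 for Itgax, -2.64 for Itgam, -2.24 for Itgb7, -1.87 for Itgb2, -1.64 for Itga7, -1.54 for Itga5, -1.10 for Itga3 and -1.06 for Itgb1, and 2.40 for Lamb3, 1.58 for Lama3 and 1.48 for Lama5. Itgb7 (adjusted p = 0.035) and Lama5 (adjusted p = 0.035) were nearest the threshold.

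It also differed for 11 genes of the lists around them. Among the adaptors the log2 differences were -2.50 for Actn1, -2.49 for Flnc, -1.77 for Pdlim7 and -1.29 for Actn4. Among the basement membrane partners they were -1.82 for Sparc, -1.18 for Fbln2 and 1.18 for Egflam. Among the ligands they were -6.08 for Tnc, -5.18 for Postn, -3.35 for Col1a1 and -2.37 for Fbn1. The 2 models differ in the Cre used, tamoxifen and the time since deletion. They may also differ in age, which is not given for iCKO and CTR2, and their experiments share no library. These cannot be told apart.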

How the results depend on the processing

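In mCKO against CTR1 the number of members called was 0 without the block and in every fit that left out 1 library (0 to 0). It was 5 with the replicate block, whose pairing of same-numbered libraries no label states, and 1 without both replicate 3 libraries. In iCKO it was 19, and 15 to 20 with 1 library left out. In the difference between models it was 11, 8 to 12 with 1 library left out, and 14 without the replicate 3 libraries of both experiments. There Itgav (-0.93), Lamc1 (-0.72), Lama4 (-0.82) and Lamb2 (0.62) were added (adjusted p = 0.0076, 0.011, 0.048 and 0.027, edgeR). Of the beta subunits, 2 rather than 3 were called there. With the replicate block the number was 20 in iCKO, where same-numbered libraries did not deviate together, and 12 in the difference. Itgae (2.12, adjusted p = 0.046, edgeR) was added in iCKO and Lamb2 (0.78, adjusted p = 0.017, edgeR) in the difference. Of the 19 members called in iCKO, 14 passed in all 12 alternatives, and the others were Itga4, Itgav, Lamc1, Lama4 and Itga11. The iCKO minus CTR2 difference in the Lama4 share was 24.5 percentage points (22.4 to 25.9 with 1 library left out) and in the Lama5 share -27.7 (-29.7 to -25.3).

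Directions turned only among log2 fold changes not called without the block, in 30 instances, 24 of them in mCKO. In mCKO, Itgb1 was 0.0045 and Lama5 0.013 with library totals alone as scaling, Itga5 -0.0032 with no filter and Itga3 -0.036 without both replicate 3 libraries. Leaving out 1 library at a time, the mCKO values ran from -0.11 to 0.74 for Itgb7, -0.089 to 0.26 for Flnc, -0.063 to 0.073 for Itga5, -0.31 to 0.011 for Itga7, -0.36 to 0.18 for Lama5, -0.31 to 0.082 for Lamb2, -0.16 to 0.39 for Itga1, -0.29 to 0.0049 for Itga9, -0.022 to 0.32 for Actn4, -0.017 to 0.99 for Col18a1, -0.11 to 0.49 for Fbln2, -0.0016 to 0.21 for Itgav and -0.10 to 0.19 for Itga3. In iCKO, Itga6 was -0.0085 with DESeq2 size factors and -0.0085 with DESeq2's Wald test, and ran from -0.10 to 0.17 with 1 library left out, and Itga9 ran from -0.026 to 0.35. The cause was not tested. Members under about 1 CPM rest on few counts, which limits what could be detected for them.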
